A study of Mus musculus with 8 samples.

Results

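Imprinted genes are genes usually expressed from the copy inherited from only one parent. A list of 44 mouse imprinted genes was chosen with earlier results of these data known, and their allele classes come from general knowledge. Those with a mean normalized abundance of at least 10 over 8 libraries of late morulae were described and tested. Of the 44, 32 met that rule, out of 12565 genes tested and 19058 genes in the deposited table. A further 9 had a lower mean, and H19, Meg3 and Magel2 were not analysed here. Of the 32, 11 are usually expressed from the maternal allele (Igf2r, Cd81, Ascl2, Cdkn1c, Phlda2, Tssc4, Copg2, Ube3a, Commd1, H13 and Trappc9). A further 18 are usually expressed from the paternal allele (Igf2, Mest, Snrpn, Nnat, Impact, Plagl1, Zrsr1, Sgce, Peg10, Peg3, Mcts2, Slc38a4, Jade1, Sfmbt2, Gab1, Smoc1, Zdbf2 and Rasgrf1). The remaining 3, Grb10, Gnas and Inpp5f, were classed apart because their expressed allele depends on isoform or tissue. The classes are general ones and do not say which of the 32 genes are imprinted in the morula. Alleles were not measured, so every value is the summed abundance of both copies.

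The double knockdown embryos came from zygotes injected with siRNA against both Rbbp4 and Rbbp7, the Rbbp4 knockdown and Rbbp7 knockdown embryos from zygotes given siRNA against that gene alone, and the control embryos from zygotes given a non-specific siRNA. All groups were sampled as whole mouse late morulae at 78 h after fertilization with 2 polyadenylated-RNA libraries per group. Rbbp4 and Rbbp7 encode related histone-binding proteins that are subunits of polycomb repressive complex 2, of histone deacetylase complexes and of chromatin assembly complexes. Injection of siRNA lowers an mRNA without removing the gene, and Rbbp4 mRNA was at 7.80% of the control mean in the double knockdown and 7.44% in the Rbbp4 knockdown, and Rbbp7 mRNA at 3.80% in the double knockdown and 3.79% in the Rbbp7 knockdown.

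Most imprinted genes are controlled by regions that carry DNA methylation on one parental copy, laid down in the egg or the sperm and kept through cleavage by a protein complex that contains TRIM28. A smaller group, called noncanonical, is silenced on the maternal copy in early embryos by the polycomb mark H3K27me3. Slc38a4, Jade1, Sfmbt2, Gab1 and Smoc1 are the 5 genes of this kind among the 32. Many imprinted genes act in growth and in the placenta, and the morula is the stage just before the outer cells become trophectoderm, the first placental lineage.

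The promoters of Cd81, Gab1 and Slc38a4, 3 of the genes on which the comparison of the double knockdown with the control turned most, are shown first. Each runs 5′ to 3′ on the gene's own strand, from 250 bases before to 50 bases after a RefSeq transcription start, with every CpG, the dinucleotide that can carry DNA methylation, in capitals. Cd81, on chromosome 7 (GRCm38.p6 chr7:143052500-143052799, plus strand), is a maternally expressed gene. Gab1 (chr8:80880470-80880769, minus strand) and Slc38a4 (chr15:97055907-97056206, minus strand) are noncanonical and paternally expressed.
Cd81: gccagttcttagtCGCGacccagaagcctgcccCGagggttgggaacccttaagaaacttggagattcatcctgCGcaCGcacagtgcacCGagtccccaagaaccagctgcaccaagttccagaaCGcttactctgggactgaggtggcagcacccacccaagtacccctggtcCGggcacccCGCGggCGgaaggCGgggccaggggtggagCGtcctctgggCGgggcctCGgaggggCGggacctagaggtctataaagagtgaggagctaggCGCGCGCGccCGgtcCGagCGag
Gab1: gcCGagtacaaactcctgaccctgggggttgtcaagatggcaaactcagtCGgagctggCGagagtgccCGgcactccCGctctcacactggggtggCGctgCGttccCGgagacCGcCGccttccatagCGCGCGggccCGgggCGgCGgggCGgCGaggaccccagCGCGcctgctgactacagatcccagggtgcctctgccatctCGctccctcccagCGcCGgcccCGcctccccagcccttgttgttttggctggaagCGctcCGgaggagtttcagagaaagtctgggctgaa
Slc38a4: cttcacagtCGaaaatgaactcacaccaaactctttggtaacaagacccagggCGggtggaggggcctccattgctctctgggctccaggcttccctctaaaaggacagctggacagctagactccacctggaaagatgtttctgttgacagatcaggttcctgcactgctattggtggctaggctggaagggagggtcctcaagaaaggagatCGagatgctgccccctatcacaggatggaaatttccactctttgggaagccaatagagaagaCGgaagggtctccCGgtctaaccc
The Cd81 window held 23 CpGs and the Gab1 window 26, with GC contents of 65.7% and 68%. The Slc38a4 window held 5 CpGs at a GC content of 53%. Windows were found for 26 of the 32 genes, and those for Cdkn1c, Impact, Peg10, Sgce, Smoc1 and Trappc9 are not shown or counted. For each gene only the first window listed was used, and some lay away from the annotated gene. The Snrpn window (chr7:60450128-60450427) lay outside the gene's annotated span, 59982495 to 60140219. So did the Zdbf2 window (chr1:63200108-63200407), with the gene annotated from 63273265 to 63314576. The median number of CpGs was 22 over the 26 imprinted genes, against 7 over all 27025 genes with a window, with quartiles of 3 and 21. It was 23 over 9 maternal genes and 14 over 14 paternal genes. The motif TGCCGC, the core recognised by ZFP57 when methylated, was searched on both strands. It lay in 7 of the 26 windows (26.9%: Commd1, Copg2, Grb10, Mcts2, Nnat, Plagl1 and Zdbf2), against 11.6% of all genes with a window, and not in the 3 shown. The windows of all genes were not limited to the genes tested here. Neither the CpG nor the motif comparison is therefore with genes of similar expression. The motif itself contains a CpG, and the motif comparison was not matched for the number of CpGs in a window. A match says only that these letters are in the window.

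The 8 libraries had similar totals of normalized abundance, from 11334107 to 12011829. Control replicate 1 differed most from the rest: 3937 genes were at 0 in it and mitochondrial genes made up 6.21% of its abundance, where the other libraries had 2644 to 3237 such genes and 4.26% to 5.53%. The 32 imprinted genes took 0.188% to 0.206% of each library's total. Whether libraries sharing a group derive from different pools of embryos is not stated in the labels. The p-values therefore reflect library-to-library spread alone, and that may be technical.

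The imprinted genes covered a wide range of levels in the morula. Per kb of annotated exon, Igf2r was the highest in control embryos, at 977 normalized abundance per kb. Igf2r encodes the receptor that takes up insulin-like growth factor 2 for degradation and carries enzymes to lysosomes. Snrpn, which encodes a spliceosome protein, followed at 962 per kb, and Gnas, which encodes a G-protein subunit, at 280 per kb. Slc38a4, an amino acid transporter, stood at 226 per kb and Gab1, an adaptor protein of growth factor receptors, at 202 per kb. The lowest was Rasgrf1, an exchange factor for Ras, at 1.35 per kb. The 5 noncanonical genes lay in the upper part of the range, from 51.3 per kb for Smoc1 to 226 per kb for Slc38a4. Igf2r and Snrpn overlapped in level per kb, and no order between them can be read.

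**Figure D1:**
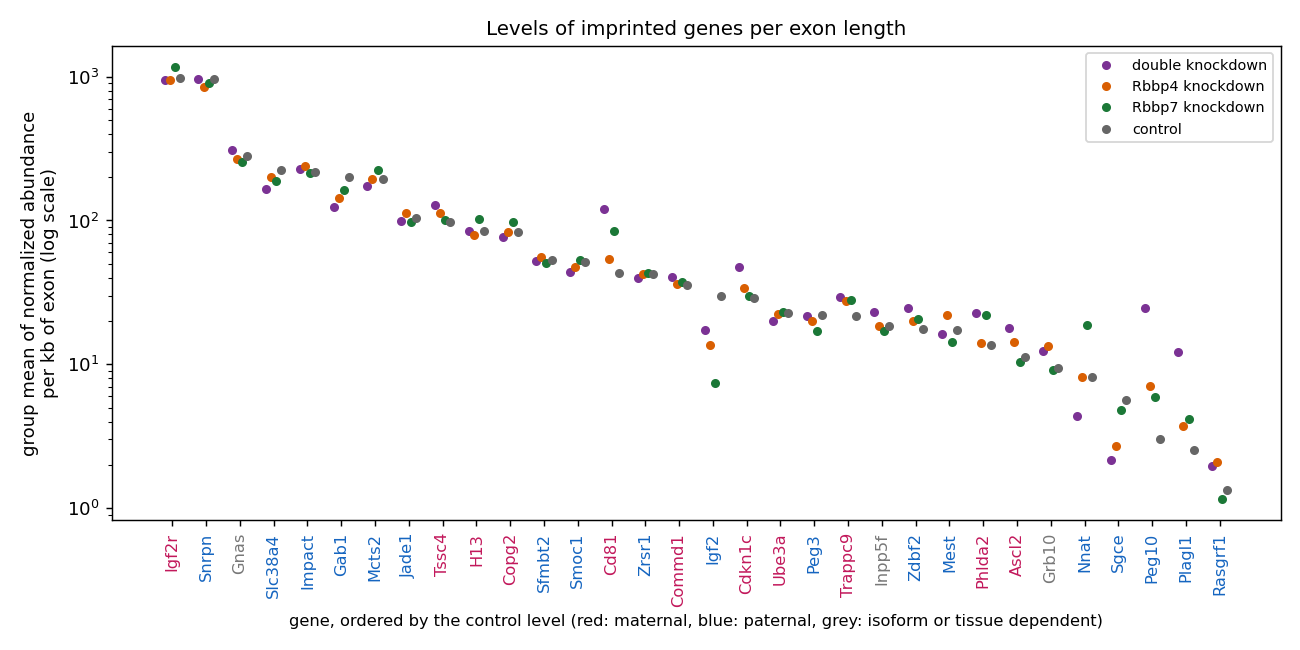
Level of each of the 32 imprinted genes per kb of exon, on a log scale, with 1 point per group mean of 2 libraries and genes ordered by the control level. Igf2r and Snrpn stand highest in every group, from 853 to 1159 per kb, and the group means spread most for Peg10, Plagl1, Nnat, Igf2, Cd81 and Sgce.

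How much a gene varied over the 8 libraries followed its level only in part. Snrpn varied least, with a highest library 1.18 times the lowest. Peg10 varied most, at 14.3 times, followed by Plagl1 at 9.85, Sgce at 7.60 and Igf2 at 6.06. All 4 are paternally expressed. The 9 genes below the mean of 10 were Zim1, Peg12, Kcnq1, Dlk1, Nap1l5, Usp29, Slc22a18, Rtl1 and Ndn, with values from 0 to 24.3. Ndn, with a mean of 8.53, lay just outside the minimum, and Nnat, with a mean of 18.0, lay just inside it. Usp29 was at 24.3 in control replicate 1 and listed at 0 in the other 7 libraries. Dlk1 was at 0.830 and 0 in double knockdown embryos, 0 and 4.52 in Rbbp4 knockdown embryos, 0 and 0 in Rbbp7 knockdown embryos, and 3.0 and 2.25 in control embryos, so the growth regulator of the Dlk1 and Meg3 locus was at or near 0 in every group.

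**Figure D2:**
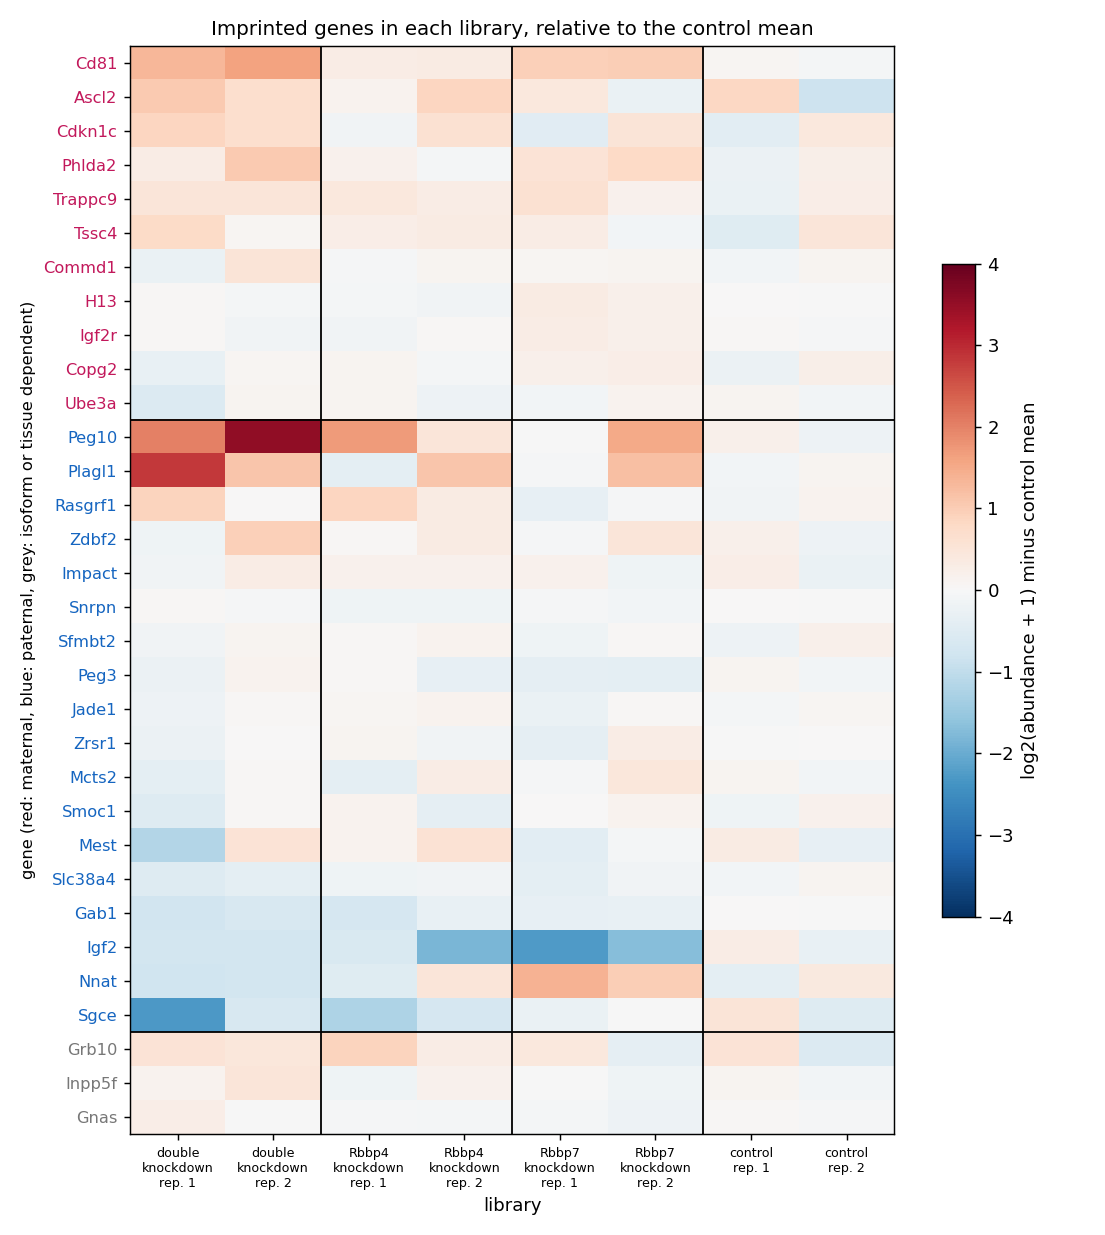
Each imprinted gene (rows, by allele class) in each library (columns), as log2(abundance + 1) minus the control mean of that gene. Cd81 is high in both double knockdown and both Rbbp7 knockdown libraries, and Igf2 is low in all 6 knockdown libraries. Peg10 is highest in the 2 double knockdown libraries, which are unequal, and Plagl1 is highest in double knockdown replicate 1 only.

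In the double knockdown, 1 of the 32 imprinted genes rose and 0 fell against the control (limma, Benjamini-Hochberg adjusted p below 0.05). Over all tested genes 1.15% were called in that comparison. The gene that rose was Cd81. It encodes a tetraspanin, a membrane protein of the cell surface and of vesicles, and lies at the edge of the imprinted Kcnq1 cluster on chromosome 7 (GRCm38, 143052739 to 143067934, plus strand), where its imprinting is known from the placenta. Its normalized abundance was 311 and 380 in double knockdown embryos, 154 and 156 in Rbbp4 knockdown embryos, 240 and 245 in Rbbp7 knockdown embryos, and 130 and 119 in control embryos. The 4 groups did not overlap and stood in the order double knockdown, Rbbp7 knockdown, Rbbp4 knockdown, control. The same order without overlap was seen in 36 of the 12565 tested genes (0.287%), and Cd81 was the only imprinted gene among them. This order was taken from the values of Cd81 itself. Apart from its reverse, other orders were not counted, so the share does not test Cd81.

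Cd81 averaged 346 ± 48.7 in double knockdown embryos, 155 ± 1.08 in Rbbp4 knockdown embryos, 243 ± 3.54 in Rbbp7 knockdown embryos and 125 ± 7.85 in control embryos (SD, n = 2 each). The double knockdown mean was 2.77 times the control mean, a log2 change of 1.46 ± 0.20 (limma, SE; adjusted p = 0.0178). In the Rbbp7 knockdown the log2 difference from the control was 0.96 ± 0.20 (adjusted p = 0.178), and in the Rbbp4 knockdown 0.31 ± 0.20 (adjusted p = 0.885), and neither passed. These comparisons share the control libraries. The double knockdown stood 1.15 ± 0.20 above the Rbbp4 knockdown (adjusted p = 0.162) and 0.50 ± 0.20 above the Rbbp7 knockdown (adjusted p = 0.282) on the log2 scale. The Rbbp7 knockdown stood 0.65 ± 0.20 above the Rbbp4 knockdown (adjusted p = 0.336). The double knockdown's change in Cd81 exceeded the sum of the single differences by 0.19 ± 0.28 (adjusted p = 0.929), within its error.

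The rise of Cd81 passed in 10 of 18 other settings, with log2 changes from 1.31 to 1.60 and adjusted p from 0.0159 to 0.0996. It did not pass without either double knockdown library (adjusted p = 0.0612 without replicate 1 and 0.0698 without replicate 2), either Rbbp4 knockdown library (0.0507 without replicate 1 and 0.0501 without replicate 2) or either control library (0.0534 without replicate 1, and just above the threshold without replicate 2), by limma with Benjamini-Hochberg adjustment. Nor did it pass without the variance trend (adjusted p = 0.0595) or with only the control and double knockdown libraries in the fit (adjusted p = 0.0996). The exons of Cd81 share 3.61% of their bases with a gene on the opposite strand. In a bulk embryo, more cells expressing a gene and more RNA per cell cannot be told apart. The trophectoderm list summed to 28703 and 27481 in double knockdown embryos, 36594 and 36161 in Rbbp4 knockdown embryos, 27019 and 27021 in Rbbp7 knockdown embryos, and 35775 and 42982 in control embryos. Of its 15 tested genes, 4 fell in the double knockdown (Krt18, Id2, Fabp3 and Atp1b1), where 1.15% of all tested genes were called. Rbbp7 knockdown embryos had 1 that fell (Fabp3), Rbbp4 knockdown embryos had 0, and 0 rose in any knockdown. In each single knockdown 0.0239% of all tested genes were called. Cumulus and granulosa cells surround the egg, and of a list of 12 of their genes 6 had values. These summed to 130 and 115 in double knockdown embryos, 59.0 and 91.8 in Rbbp4 knockdown embryos, 47.5 and 38.6 in Rbbp7 knockdown embryos, and 56.0 and 44.1 in control embryos. In the double knockdown most of the sum was Foxl2, at 101 and 74.4 in the double knockdown and 29.3 and 12.0 in the control. Star, the other gene of the list with a mean of at least 10, was at 24.3 and 34.7 in the double knockdown and 26.7 and 28.1 in the control, and ran from 16.7 to 51.1 over the 8 libraries. Amh, Inha, Cyp11a1 and Pgr were at 6.29 or below in every library, and the other 6 listed genes were not analysed here. The inner cell mass list summed to 42922 and 38822 in double knockdown embryos, 42890 and 43961 in Rbbp4 knockdown embryos, 49189 and 49054 in Rbbp7 knockdown embryos, and 38644 and 44714 in control embryos. Both Rbbp7 knockdown libraries were above the other 6, and 0 of its 14 tested genes passed in any knockdown against the control. Blood markers summed to at most 24.4 and fibroblast markers to at most 25.0. The part of cell type in the Cd81 result was not tested.

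**Figure D3:**
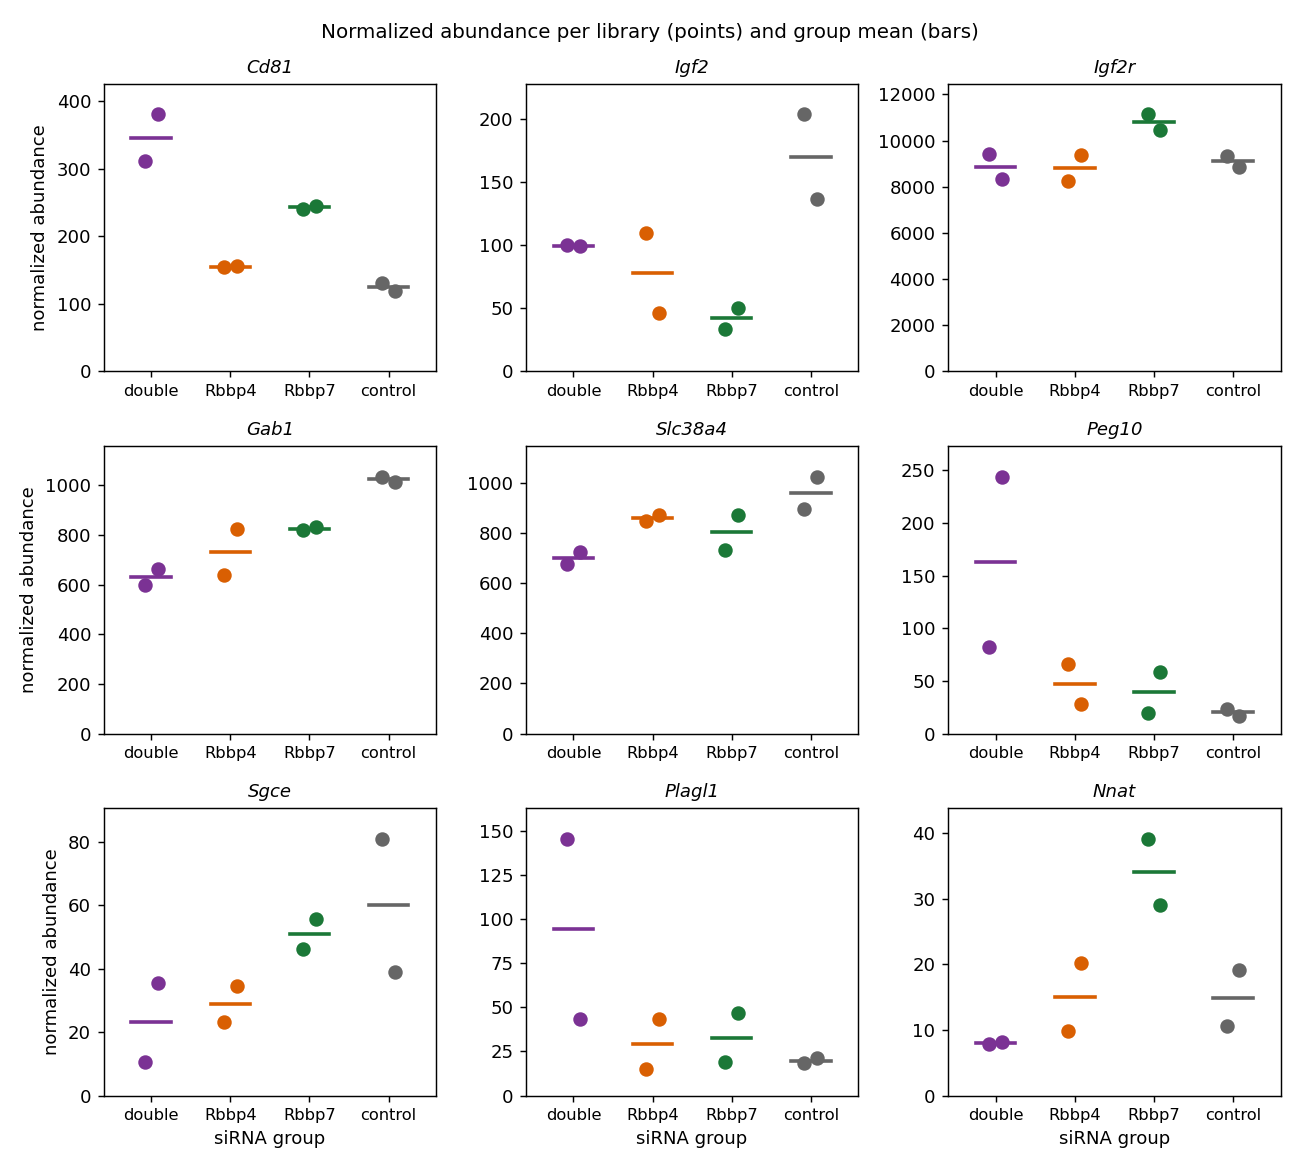
Normalized abundance of 9 imprinted genes in each library (points) with group means (bars) for the double, Rbbp4 and Rbbp7 knockdowns and the control. Cd81 steps up without overlap between groups, Gab1 and Igf2 are highest in the control, and Peg10 and Plagl1 are spread widely within the double knockdown.

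Across the whole set, 16 of the 32 differences between the double knockdown and the control were positive and 16 negative. The median log2 difference was -0.0034, against -0.00056 over all tested genes. Without double knockdown replicate 1 there were 23 positive and 9 negative, with a median of 0.096, and without replicate 2 there were 15 positive and 17 negative, with a median of -0.14. Both double knockdown libraries lay above both control libraries in 7 imprinted genes, against 21.9% of all tested genes, and below both in 5, against 22.2% of all tested genes. An unadjusted p below 0.05 was reached by 6 of the 32, against 17.3% of all tested genes. The share above the control and the share with an unadjusted p below 0.05 were near those of all tested genes, and the share below the control was smaller. The median size of the log2 difference was 0.35 over the imprinted genes and 0.27 over all tested genes, and it was 0.15 over the 22 imprinted genes with a mean of at least 100.

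The allele classes were described separately. The 11 maternal genes had 7 positive and 4 negative differences between the double knockdown and the control, with a median of 0.42 on the log2 scale. Both double knockdown libraries lay above both control libraries in 4 of them and below both in 0, against 21.9% above and 22.2% below over all tested genes. The 18 paternal genes had 6 positive and 12 negative, with a median of -0.088, and lay above in 2 and below in 5. The maternal median was 0.022 without control replicate 1, with 6 positive and 5 negative, and 0.24 without control replicate 2. It was 0.065 with no filter on low values and 0.13 with a mean of at least 50. The paternal median was 0.035 without double knockdown replicate 1, with 12 positive and 6 negative, and -0.23 without replicate 2, with 4 positive and 14 negative. Among the maternal genes, Cdkn1c, an inhibitor of cell division, was at 102 and 90.2 in the double knockdown and 41.9 and 76.1 in the control. Trappc9, a vesicle-transport factor, was at 236 and 234 in the double knockdown and 140 and 202 in the control. Neither passed, with adjusted p = 0.427 for Cdkn1c and adjusted p = 0.351 for Trappc9. Both were picked after their values were seen. The 4 negative maternal differences were those of Ube3a (-0.23), Copg2 (-0.10), Igf2r (-0.039) and H13 (-0.018). The exons of Cdkn1c share 30.7% of their bases with a gene on the opposite strand. The 3 genes whose allele depends on isoform or tissue had 3 positive differences, with a median of 0.32.

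**Figure D4:**
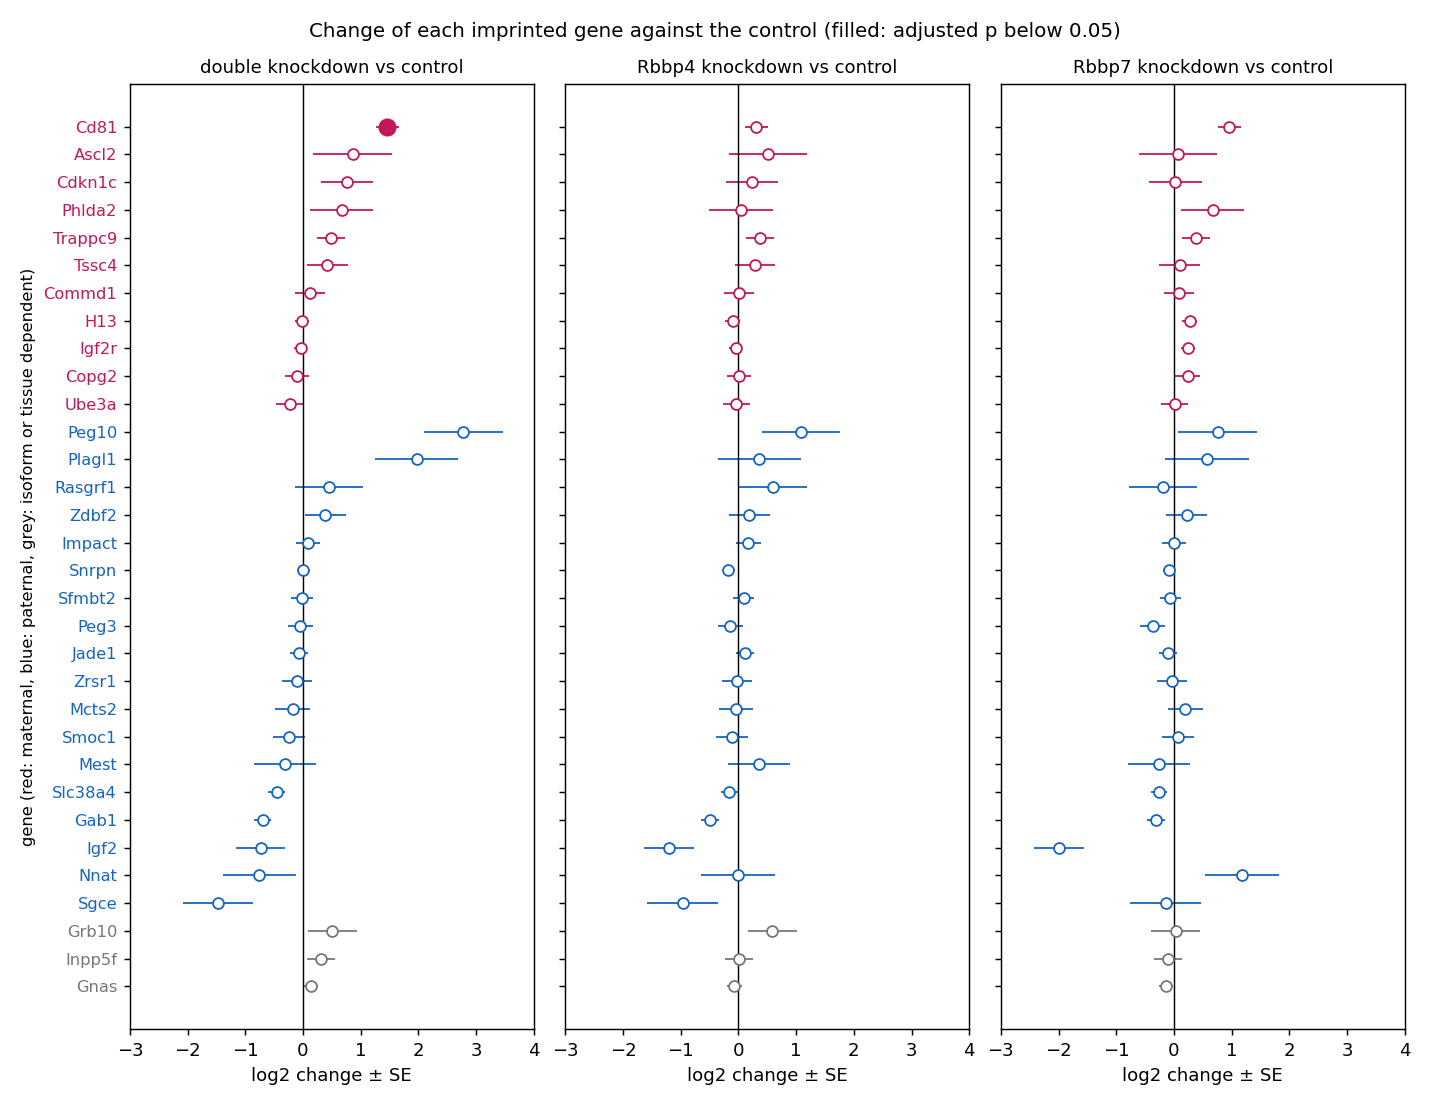
Log2 difference of each imprinted gene from the control, with its standard error (bars), in the double, Rbbp4 and Rbbp7 knockdowns; the filled point marks the gene with an adjusted p below 0.05. Cd81 in the double knockdown is the only filled point, and the largest unfilled differences are Peg10 in the double knockdown at 2.78 and Igf2 in the Rbbp7 knockdown at -1.99.

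Among the noncanonical genes, Gab1 had the smallest p in the double knockdown. Its normalized abundance was 600 and 663 in double knockdown embryos, 640 and 826 in Rbbp4 knockdown embryos, 819 and 833 in Rbbp7 knockdown embryos, and 1036 and 1013 in control embryos. Both control libraries were above all 6 knockdown libraries. The share of all tested genes with this pattern was not counted, and 22.2% had both double knockdown libraries below both control libraries. The double knockdown mean was 0.616 of the control mean, a log2 difference of -0.70 ± 0.15 (adjusted p = 0.0683), and it did not pass. The difference from the control was -0.49 ± 0.15 in the Rbbp4 knockdown (adjusted p = 0.750) and -0.31 ± 0.15 in the Rbbp7 knockdown (adjusted p = 0.563). The exons of Gab1 share 5.23% of their bases with a gene on the opposite strand, and whether strand was used in counting is not given in the sources used here.

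Slc38a4 was at 675 and 725 in double knockdown embryos, 848 and 873 in Rbbp4 knockdown embryos, 734 and 872 in Rbbp7 knockdown embryos, and 896 and 1026 in control embryos. Both control libraries were above all 6 knockdown libraries, a pattern not counted over all tested genes. The log2 difference between the double knockdown and the control was -0.45 ± 0.14 (adjusted p = 0.153). The other noncanonical genes overlapped between the double knockdown and the control. Jade1, a subunit of a histone acetyltransferase complex, was at 769 and 926 in the double knockdown and 842 and 934 in the control, a log2 difference of -0.07 ± 0.16. Sfmbt2, a polycomb-group protein needed in the placenta, was at 430 and 520 in the double knockdown and 419 and 545 in the control, a difference of -0.015 ± 0.18. Smoc1, a secreted calcium-binding protein, was at 124 and 182 in the double knockdown and 157 and 202 in the control, a difference of -0.24 ± 0.28. All 5 differences were below 0 with all libraries in the fit. Without double knockdown replicate 1, Jade1 (0.061), Sfmbt2 (0.12) and Smoc1 (0.035) were above 0, and without control replicate 2 Jade1 (0.0021) and Sfmbt2 (0.17) were, as was Sfmbt2 (0.0023) under quantile normalization. Of the 5, 3 had a negative difference from the control in Rbbp4 knockdown embryos, and 4 did in Rbbp7 knockdown embryos. These counts cover only the 5 genes classed here as noncanonical. A further list of imprinted genes, described at the end, was not sorted into noncanonical and other genes. Among its 15 tested genes, 10 differences between the double knockdown and the control were positive and 5 negative.

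Peg10 and Sgce are neighbouring paternally expressed genes on chromosome 6 whose annotated ends lie 98 bases apart on opposite strands (GRCm38, Peg10 4747306 to 4760517 on the plus strand and Sgce 4674350 to 4747207 on the minus strand). Peg10, a gene derived from a retrotransposon and needed for the placenta, was at 82.5 and 244 in double knockdown embryos, 66.4 and 28.0 in Rbbp4 knockdown embryos, 19.9 and 58.7 in Rbbp7 knockdown embryos, and 23.0 and 17.1 in control embryos. The double knockdown libraries were above the other 6 but were far apart themselves. Their mean was 8.14 times the control mean, a log2 difference of 2.78 ± 0.68 (adjusted p = 0.0936). Sgce, which encodes a sarcoglycan of the cell membrane, was at 10.7 and 35.4 in double knockdown embryos, 23.1 and 34.6 in Rbbp4 knockdown embryos, 46.2 and 55.8 in Rbbp7 knockdown embryos, and 81.1 and 38.9 in control embryos. Its log2 difference between the double knockdown and the control was -1.47 ± 0.61 (adjusted p = 0.259). The neighbours thus had fitted differences of opposite sign, and neither passed. The Peg10 difference was 2.001 without double knockdown replicate 2 and 3.56 without replicate 1, and that of Sgce was -2.29 without double knockdown replicate 2 and -0.65 without replicate 1.

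Plagl1, a zinc-finger transcription factor that restrains growth, was at 146 and 43.6 in double knockdown embryos, 14.8 and 43.6 in Rbbp4 knockdown embryos, 18.95 and 46.5 in Rbbp7 knockdown embryos, and 18.2 and 21.1 in control embryos. Replicate 1 of the double knockdown was high, and replicate 2 lay within the range of the single knockdowns. The double knockdown mean was 4.81 times the control mean, a log2 difference of 1.97 ± 0.73 (adjusted p = 0.213). Without replicate 1 it was 1.11.

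In the Rbbp4 knockdown, 0 of the 32 imprinted genes passed, against 0.0239% of all tested genes. That share is 3 genes, and 37 genes passed without control replicate 2. An unadjusted p below 0.05 was reached by 2, Gab1 and Igf2, against 5.86% of all tested genes. Of the 32, 5 had both Rbbp4 knockdown libraries above both control libraries, against 18.0% of all tested genes, and 7 had both below, against 17.4% of all tested genes. The median log2 difference was 0.016, against 0.0049 over all tested genes. It was 0.046 over the maternal genes, with 8 positive and 3 negative, and -0.013 over the paternal genes, with 8 positive and 10 negative. The maternal median was 0.25 without control replicate 2 and -0.091 without control replicate 1, and the paternal and the overall medians were 0.14 without Rbbp4 knockdown replicate 1. Snrpn was at 1851 and 1832 in the Rbbp4 knockdown and 2080 and 2073 in the control, with no overlap and a log2 difference of -0.17 ± 0.11 (adjusted p = 0.884). Its exons share 34.1% of their bases with other genes, so its counts are uncertain. Peg10 had a log2 difference of 1.08 ± 0.68 and Sgce of -0.97 ± 0.61 in the Rbbp4 knockdown, each with adjusted p = 0.884. When each library was left out these ran from 0.47 to 1.69 for Peg10 and from -1.49 to -0.45 for Sgce.

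In the Rbbp7 knockdown, 0 of the 32 passed, against 0.0239% of all tested genes, and 2 had an unadjusted p below 0.05, Cd81 and Igf2, against 9.55% of all tested genes. The share called is again 3 genes, and 38 genes passed without control replicate 2. Of the 32, 5 had both Rbbp7 knockdown libraries above both control libraries, against 19.9% of all tested genes, and 6 had both below, against 19.7% of all tested genes. The median log2 difference was 0.029, against 0.0095 over all tested genes. All 11 maternal genes had a positive fitted log2 difference, from 0.013 to 0.96, with a median of 0.24, while 51.4% of all tested genes were positive. The fit averages logs, and for Ascl2 (0.070) the group means ran the other way, with a ratio of 0.913. Among the 18 paternal genes, 6 were positive and 12 negative, with a median of -0.070. That median was 0.023 without Rbbp7 knockdown replicate 1, with 9 positive and 9 negative, and -0.23 without replicate 2, with 3 positive and 15 negative. The count of positive maternal genes was 7 of 11 without control replicate 1 and 9 of 11 without control replicate 2, and 9 of 11 without either Rbbp7 knockdown library. The maternal median was 0.13 without control replicate 1 and 0.45 without control replicate 2. In the same comparison all 15 tested trophectoderm genes had a negative difference, with a median of -0.94, while 9 of 14 inner cell mass genes had a positive one, with a median of 0.19. Of the trophectoderm genes, 14 were negative in the double knockdown (median -0.27) and 13 in the Rbbp4 knockdown (median -0.20). Of the inner cell mass genes, 7 were positive in the double knockdown and 10 in the Rbbp4 knockdown. The part of cell type in the differences of the imprinted genes was not tested.

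Igf2 encodes insulin-like growth factor 2, a fetal growth factor, and Igf2r encodes the receptor that removes it, with opposite parental expression. Igf2 was at 100 and 99.3 in double knockdown embryos, 110 and 46.8 in Rbbp4 knockdown embryos, 33.7 and 50.6 in Rbbp7 knockdown embryos, and 204 and 137 in control embryos. The control libraries were the 2 highest of the 8, a pattern not counted over all tested genes, and the Rbbp7 knockdown held the lowest. The Rbbp7 knockdown mean was 0.247 of the control mean, a log2 difference of -1.99 ± 0.43 (adjusted p = 0.203), against -1.21 ± 0.43 in the Rbbp4 knockdown (adjusted p = 0.814) and -0.74 ± 0.43 in the double knockdown (adjusted p = 0.420), all against the same control libraries. Igf2r was at 11128 and 10444 in the Rbbp7 knockdown, against 9341 and 8850 in the control. Both Rbbp7 knockdown libraries were above the other 6, with a log2 difference from the control of 0.25 ± 0.12 (adjusted p = 0.545). The Igf2 exons share 64.5% of their bases with other genes in the annotation, Igf2os among them.

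H13 encodes a signal-peptide peptidase, and the paternally expressed Mcts2, which encodes a translation factor, lies inside H13. H13 was at 949 and 877 in the Rbbp7 knockdown, against 760 and 753 in the control, with no overlap and a log2 difference of 0.27 ± 0.13 (adjusted p = 0.546). Mcts2 was at 169 and 241 in the Rbbp7 knockdown, against 190 and 163 in the control, overlapping. Nnat, which encodes a small membrane protein of the endoplasmic reticulum, was at 39.1 and 29.0 in the Rbbp7 knockdown, against 10.6 and 19.2 in the control, with a difference of 1.18 ± 0.64 (adjusted p = 0.604). It was low in the double knockdown, at 7.86 and 8.20.

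For the other locus pairs, each knockdown overlapped the control. Mest, a member of the alpha/beta hydrolase family, was at 29.0 and 98.7 in the double knockdown and 84.0 and 53.2 in the control, and its maternally expressed neighbour Copg2, a coat protein of transport vesicles, was at 343 and 448 in the double knockdown and 355 and 499 in the control. The exons of Mest and Copg2 share bases, 23.1% of those of Mest, so reads there could be given to either. Zrsr1, a splicing factor lying inside Commd1, was at 163 and 195 in the double knockdown and 191 and 192 in the control. Commd1, an intracellular trafficking factor, was at 177 and 300 in the double knockdown and 195 and 227 in the control.

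The knockdowns were also compared with each other. Between the double knockdown and the Rbbp4 knockdown, 0 of the 32 imprinted genes passed, against 0.0159% of all tested genes, and 2 had an unadjusted p below 0.05, against 9.57% of all tested genes. The 3 smallest p-values were those of Cd81, of Peg10, with a log2 difference of 1.70 ± 0.68 (adjusted p = 0.480), and of Plagl1, with 1.61 ± 0.73 (adjusted p = 0.527). Between the double knockdown and the Rbbp7 knockdown, 0 passed, against 0.358% of all tested genes, and 7 had an unadjusted p below 0.05, against 15% of all tested genes. Nnat had a log2 difference of -1.94 ± 0.64 (adjusted p = 0.206), Peg10 of 2.02 ± 0.68 (adjusted p = 0.213) and Igf2 of 1.25 ± 0.43 (adjusted p = 0.219). Between the Rbbp7 knockdown and the Rbbp4 knockdown, 0 passed, against 0.0796% of all tested genes, and 3 had an unadjusted p below 0.05, against 9.3% of all tested genes. They were Cd81, H13 (log2 difference 0.37 ± 0.13, adjusted p = 0.379) and Igf2r (0.29 ± 0.12, adjusted p = 0.465).

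The interaction is the double knockdown's difference from the control minus the sum of the single knockdowns' differences. For it 0 of the 32 passed, against 0.00796% of all tested genes, and 1, Igf2, had an unadjusted p below 0.05, against 6.49% of all tested genes. The interaction of Igf2 was 2.46 ± 0.61 on the log2 scale (adjusted p = 0.593). That of Nnat was -1.93 ± 0.90 (adjusted p = 0.775) and that of Gnas 0.34 ± 0.18 (adjusted p = 0.782).

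A second list held 28 genes whose products set, keep or erase imprints, of which 26 were tested. In the double knockdown 1 rose, Tet1, and 1 fell, Trim28, where 1.15% of all tested genes were called. Over the list, 5 differences from the control were positive and 21 negative, with a median of -0.25 on the log2 scale against -0.00056 over all tested genes. Trim28, the scaffold that keeps methylation at imprinted regions, was at 7157 and 6402 in double knockdown embryos, 7978 and 7708 in Rbbp4 knockdown embryos, 11056 and 10537 in Rbbp7 knockdown embryos, and 10829 and 10007 in control embryos. The libraries with Rbbp4 siRNA were all below the libraries without it, a pattern taken from these values and not counted over all tested genes. In the double knockdown Trim28 fell by 0.62 ± 0.11 on the log2 scale (adjusted p = 0.0341). It was also lower in the double knockdown than in the Rbbp7 knockdown, with a log2 difference of -0.67 ± 0.11 (adjusted p = 0.0453), a call that held in 7 of 18 other settings, with adjusted p from 0.0380 to 0.222. In the Rbbp4 knockdown the difference from the control was -0.41 ± 0.11 (adjusted p = 0.680). The fall against the control passed in 6 of 18 other settings, with adjusted p from 0.0275 to 0.181.

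Tet1 encodes an enzyme that oxidises methylated cytosine. It was at 2491 and 2022 in double knockdown embryos, 1910 and 1826 in Rbbp4 knockdown embryos, 1581 and 1574 in Rbbp7 knockdown embryos, and 1400 and 1272 in control embryos. The 4 groups did not overlap, and the share of all tested genes with their order was not counted. In the double knockdown Tet1 rose by 0.75 ± 0.13 on the log2 scale (adjusted p = 0.0351), a rise that passed in 7 of 18 other settings, with adjusted p from 0.0234 to 0.175. In the Rbbp4 knockdown its difference was 0.48 ± 0.13 (adjusted p = 0.714) and in the Rbbp7 knockdown 0.24 ± 0.13 (adjusted p = 0.604). Dppa3, which protects maternal methylation in the zygote, was at 7523 and 7936 in the double knockdown and 10548 and 10354 in the control, with a log2 difference of -0.44 ± 0.10 (adjusted p = 0.0860).

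In the single knockdowns 0 regulators passed, against 0.0239% of all tested genes in each. In the Rbbp4 knockdown 9 of the 26 differences were positive and 17 negative. Tet2, another cytosine oxidase, was at 279 and 743 in the Rbbp4 knockdown and 1975 and 719 in the control, so the control libraries themselves were far apart (log2 difference -1.39 ± 0.50, adjusted p = 0.824). In the Rbbp7 knockdown 12 were positive and 14 negative. Ehmt2, a histone H3K9 methyltransferase, was at 1956 and 1690 in the Rbbp7 knockdown, against 2328 and 2540 in the control (-0.42 ± 0.15, adjusted p = 0.401). Uhrf1, which recruits the maintenance methyltransferase, was at 1053 and 1560 in the Rbbp7 knockdown, against 1585 and 2121 in the control (-0.52 ± 0.22, adjusted p = 0.511).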

How the data were processed

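Polyadenylated RNA of 8 libraries in 4 groups was analysed. The submitters' processing notes name the build GRCm38 and the tools Trimmomatic, HISAT2, featureCounts and DESeq2. Their versions, the annotation release and the strand setting were not given in the sources used here. Each deposited value is a signal, the abundance of a gene after the authors' DESeq2 normalization, per the labels and the table name. Whole reads could not be recovered, depth is unknown, and no counting interval is given. Identifiers were matched to symbols in the GENCODE M21 annotation (18942 matched, 116 did not), which also gave exon lengths and overlaps, and 0 columns belonged to other samples.

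Values were analysed as log2(value + 1), which understates changes of low genes. Genes with a mean of at least 10 (12565; 6493 left out) entered a limma 3.58.1 fit (R 4.3.3) of the 8 libraries with 1 mean per group and a trended variance prior (degrees of freedom: 4 residual, 5.18 prior). Two-sided p-values were given Benjamini-Hochberg adjustment over all tested genes in each of 7 comparisons, and an adjusted p below 0.05 was called. The fit was tested on simulated data. Errors after group means are SD, those after log2 values SE. Alternatives were other pseudocounts, filters, scalings (quantile, and trimmed mean of M values), variance models, a replicate block and leaving out each library. The members and lists were chosen with earlier results of these data known. Genes given in full were those called, the 6 smallest p-values in each comparison with the control, the 3 smallest in the others, locus pairs and noncanonical genes; Cdkn1c and Trappc9 were added after their values were seen. Of the regulators, called genes and the 3 smallest p-values per comparison with the control are given.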

Additional observations from a re-analysis of the deposited data

How the results depend on the processing

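The 1 imprinted gene called in the double knockdown against the control became 0 without the variance trend (no trend) and with only the groups compared in the fit, and ranged from 0 to 1 when each library was left out. The count of all genes called there was 144, against 10 with no trend, 3 with only the groups compared, 38 with group weights and 27 to 97 when a library was left out. In the Rbbp4 and Rbbp7 knockdowns it was 3 each, against 2 to 37 and 1 to 38 when a library was left out, the highest without control replicate 2. When each library was left out, the median of all members in the double knockdown lay between -0.14 and 0.096, that of the paternal genes there between -0.23 and 0.035, and that of the paternal genes in the Rbbp7 knockdown between -0.23 and 0.023. The maternal median in the double knockdown was 0.42, against 0.065 with no filter and 0.13 with a mean of at least 50. Leaving out each library gave ranges of 0.022 to 0.47 for it, -0.091 to 0.25 for the maternal genes in the Rbbp4 knockdown, -0.021 to 0.14 for the paternal genes and -0.018 to 0.14 for all members there, and 0.13 to 0.45 for the maternal genes in the Rbbp7 knockdown. In the double knockdown the sign turned for Sfmbt2 under quantile normalization (0.0023), and when a library was left out the difference ran from -0.20 to 0.17 for Sfmbt2, from -0.21 to 0.061 for Jade1 and from -0.52 to 0.035 for Smoc1. The causes were not tested. Same-numbered libraries did not deviate together (r of -0.022 to 0.051 across genes). No shared shift was thus visible, which does not settle whether the replicate numbers pair the libraries. With the replicate block 1 imprinted gene was called, Cd81 with adjusted p = 0.0285 (limma), and 113 genes in all. Depth is unknown and each group has 2 libraries, and a missed threshold does not show that a gene did not differ.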

Other observations

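A further list of 40 imprinted genes, chosen with these results known and not among the 32, had 15 tested genes. In each of the double, Rbbp4 and Rbbp7 knockdowns 0 of the 15 passed against the control (limma, adjusted p below 0.05), with medians of 0.23, -0.076 and -0.15 on the log2 scale. Sall3, which encodes a zinc-finger transcription factor, was called between the double and the Rbbp7 knockdown, where 0.358% of all tested genes were called. It was at 257 and 94.4 in double knockdown embryos, 53.3 and 74.7 in Rbbp4 knockdown embryos, 4.75 and 2.09 in Rbbp7 knockdown embryos, and 15.3 and 38.1 in control embryos. The double knockdown was higher than the Rbbp7 knockdown by 5.22 ± 0.65 on the log2 scale (adjusted p = 0.0169), and the call held in 11 of 18 other settings, with adjusted p from 0.0141 to 0.123. Against the control Sall3 differed by 2.63 ± 0.65 in the double knockdown (adjusted p = 0.0937) and by -2.58 ± 0.65 in the Rbbp7 knockdown (adjusted p = 0.252).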
